A study of Mus musculus with 6 samples.

Results

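Matrix metalloproteases, the Adamts proteases and their tissue inhibitors, the Timps, were measured by RNA-Seq in mouse primary renal tubular epithelial cells (TECs) that received a small interfering RNA (siRNA) against Sox9. The genes were taken by name and biotype from the table of all genes: protein-coding genes called Mmp, Adamts or Timp followed by a number. This gave 44 of the 30315 genes listed, namely 21 Mmp, 19 Adamts and 4 Timp genes. Sox9 encodes a transcription factor that rises in injured kidney tubules, and the comparison asks how mRNA levels differ when it is knocked down. TECs are cells isolated from kidney tubules, here of C57BL/6 mice, and grown to about 50% confluence. The siSox9 group (n = 3) was transfected with siSox9 and the siNC group (n = 3) with the control siRNA siNC, both with EndoFectin Max 12 h before hypoxia/reoxygenation (H/R). H/R was 6 h in glucose-free medium at 1.0% O2 and then 18 h in complete medium, and it models ischemia-reperfusion injury in culture. All 6 libraries went through H/R, so the values show the knockdown within injured cells, and 1 siRNA was used against Sox9. The labels do not say whether replicates were separate animals or cultures, so the p-values measure the spread between these samples, which may be technical.

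These families act together at the cell surface and in the extracellular matrix. Mmps are zinc-dependent proteases made as inactive precursors, and between them they cut collagens, gelatin, proteoglycans and many signalling proteins; some are secreted and the membrane-type members stay anchored in the plasma membrane. Adamts proteases are secreted and carry thrombospondin repeats, and their substrates include proteoglycans, procollagens and cartilage oligomeric matrix protein (COMP). Timps bind the active site of these enzymes, and Timp3 stays in the matrix and also inhibits several Adam and Adamts enzymes. In the kidney, the balance of these genes is studied for its part in tubule repair and in fibrosis after injury.

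Values are FPKM, in which fragments are divided by a gene's exon length and by the size of the library, so levels can be set side by side between genes. Differences were tested with limma on log2(FPKM + 1) over the 12009 genes whose mean over the libraries reached 1 FPKM, and an adjusted p under 0.05 counts as past the threshold; this scale understates the change of low genes. Recovered totals were 23893197 to 25725743 reads per library. Sox9 had 8.93, 8.61 and 9.07 FPKM with siSox9 and 25.7, 26.5 and 25.6 FPKM with siNC, so 34.2% of the control level was left (log2 fold change -1.45, SE 0.03, limma, adjusted p = 7.03e-06). Of all genes tested, 30.4% passed the threshold, 12.8% higher and 17.6% lower with siSox9, and in 46.3% the groups did not overlap. Markers of tubular epithelium summed to 3820 to 3970 FPKM with siSox9 and 3650 to 3850 with siNC, mostly Krt8 and Krt18. Among these 11 markers 9 were at 1 FPKM or more, but Slc34a1, which marks proximal tubule, was under 0.1 FPKM. Lrp2 and Cubn had means of 2.27 and 0.476 FPKM over the 6 libraries. Of 9 macrophage markers 7 were at 1 FPKM or more, and their sums were 184 to 205 with siSox9 and 187 to 193 with siNC. Of 8 fibroblast and pericyte markers 2 reached that level, with sums of 660 to 714 and 711 to 750 that were mostly Acta2; Dcn was under 0.1 FPKM. Endothelial markers summed to 3.06 to 3.3 and 3.35 to 4.34, neutrophil markers to 0.362 to 0.952 and 0.434 to 0.708, and podocyte markers to 12.5 to 13.9 and 18.8 to 19.5 FPKM with Nphs1 under 0.1. In bulk RNA, fewer cells of a type and less RNA per cell cannot be told apart.

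Of the 44 genes, 19 reached a mean of 1 FPKM and were tested, 8 Mmp, 8 Adamts and 3 Timp genes. Past the threshold were 9 of them, which is 47.4% against the 30.4% of all genes. With siSox9, 3 rose and 6 fell, where 12.8% of all genes rose and 17.6% fell. Mmp15, Mmp11, Mmp2, Adamts7, Adamts16 and Timp3 fell. Adamts12, Adamts5 and Adamts4 rose. In 11 of the 19 the groups did not overlap, 3 with siSox9 above and 8 with siSox9 below. Over all 12009 genes tested this held for 5563, or 46.3%, 2425 with siSox9 above and 3138 with siSox9 below. The median log2 fold change of the 19 genes was -0.08, against -0.01 over all genes tested. Adamts12, Adamts4 and Mmp10 were under 1 FPKM in the siNC group and were tested because of their siSox9 values, so their part in these counts comes from the filter too. The minimum fell between Adamts4 at a mean of 1.08 FPKM and Mmp10 at 1.07, which were in, and Mmp23 at 0.715 and Mmp24 at 0.692, which were out.

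**Figure D1:**
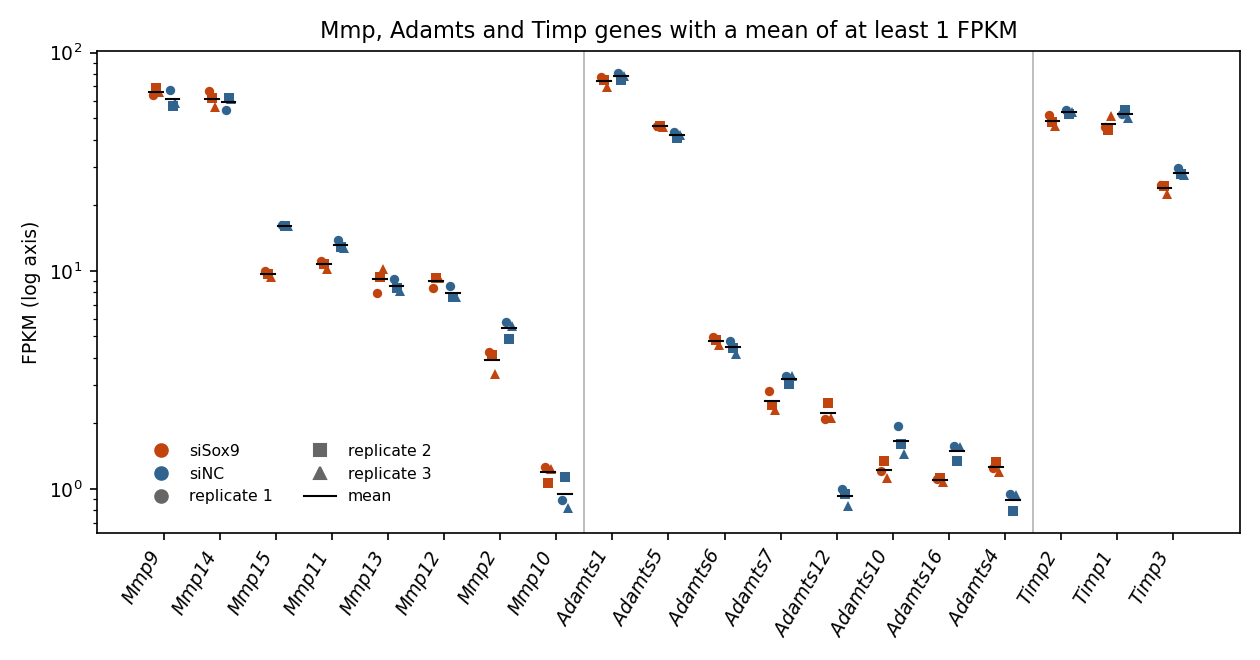
FPKM (log axis) of the 19 Mmp, Adamts and Timp genes whose mean reached 1 FPKM, each point a library (circle, square and triangle for replicates 1, 2 and 3) and each bar the mean of 3. Mmp15 lies at 9.33 to 9.99 FPKM with siSox9 and at 16.0 to 16.2 with siNC, and Adamts12 at 2.09 to 2.48 and 0.839 to 1.0, while Adamts1, Mmp9 and Mmp14 overlap between groups.

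A few genes held most of the signal. Adamts1, Mmp9, Mmp14, Timp2, Timp1, Adamts5 and Timp3 together made up 86.0% ± 0.297 (SD, n = 3) of the summed FPKM of the 44 genes with siSox9 and 84.5% ± 0.342 (SD, n = 3) with siNC. The Mmp genes summed to 176, 178 and 168 FPKM with siSox9 and 180, 173 and 174 with siNC, and the Adamts genes to 138, 135 and 129 FPKM with siSox9 and 139, 129 and 133 with siNC, so both sums overlapped between groups. The summed Timp genes gave 122, 117 and 120 FPKM with siSox9 and 137, 135 and 131 with siNC, and here every siSox9 library lay below every siNC library. Per library, summed Timp over summed Mmp was 0.689 ± 0.0308 (SD, n = 3) with siSox9 and 0.765 ± 0.0137 (SD, n = 3) with siNC. These sums are given as a description, with no test.

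The membrane-type Mmps stay on the cell surface, and the 2 that were tested parted. Mmp14, which activates the Mmp2 precursor together with Timp2 and cuts collagen around the cell, had 66.7, 62.1 and 56.1 FPKM with siSox9 and 54.7, 62.3 and 61.6 with siNC. Its groups overlapped, and the log2 fold change of 0.05 had a 95% interval from -0.12 to 0.22 (limma, adjusted p = 0.652); without siSox9 replicate 1 or without siNC replicate 1 it was -0.01. Mmp15, a close relative of Mmp14, had 9.99, 9.68 and 9.33 FPKM with siSox9 and 16.2, 16.0 and 16.0 with siNC. All siSox9 libraries lay below all siNC libraries, at 60.2% of the control mean, which was the largest fall among the 19 genes tested (log2 fold change -0.68, SE 0.03, limma, adjusted p = 6.21e-05). The reads behind it were 1203 to 1387 with siSox9 and 2086 to 2168 with siNC. Within each library, Mmp15 over Mmp14 was 0.15, 0.156 and 0.166 with siSox9 and 0.296, 0.257 and 0.259 with siNC; this ratio was chosen after the values were seen, and in an exact permutation test (two-sided) p was 0.1, which no split of 3 against 3 can go below. Mmp16, Mmp17, Mmp24 and Mmp25 were under 1 FPKM.

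Mmp15 is a + strand gene of chromosome 8 (GRCm38, 95352268 to 95375080). The 250 bases before its RefSeq start (chr8:95352046-95352295, + strand, GRCm38.p6) are shown because it fell the most, and the last 28 of them lie within the first exon of the GENCODE M21 gene model:
Mmp15: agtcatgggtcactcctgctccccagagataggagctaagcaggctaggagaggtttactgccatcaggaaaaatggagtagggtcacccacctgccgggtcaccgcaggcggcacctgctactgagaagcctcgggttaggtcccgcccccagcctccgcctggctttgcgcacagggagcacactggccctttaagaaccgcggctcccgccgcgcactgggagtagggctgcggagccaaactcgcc
This stretch is 63.6% G and C. None of the letters searched on both strands is in it: AP-1 (TGANTCA), ETS (AGGAAG) or SOX (AACAAT and ACAAAG), which 6.75%, 29.5%, 9.42% and 16.5% of the 32851 RefSeq promoters of this length hold.

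Both gelatinases, which cut denatured collagen and basement membrane collagen, were measured, and the low one fell. Mmp9 had 64.1, 69.2 and 65.7 FPKM with siSox9 and 67.4, 56.8 and 58.9 with siNC, second in level among the 44 genes. Its groups overlapped (log2 fold change 0.12, 95% interval -0.03 to 0.27, limma, adjusted p = 0.199), and it passed when siNC replicate 1 was left out (log2 fold change 0.19, adjusted p = 0.0145). Mmp2 had 4.23, 4.10 and 3.36 FPKM with siSox9 and 5.85, 4.89 and 5.59 with siNC, with every siSox9 library below every siNC library. It fell to 71.6% of the control mean (log2 fold change -0.40, SE 0.09, limma, adjusted p = 0.013). Mmp2 over Mmp9 within a library, also chosen after the values were seen, was 0.066, 0.0592 and 0.0512 with siSox9 and 0.0869, 0.086 and 0.0949 with siNC (exact permutation test, p = 0.1, the smallest possible).

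Mmp11, a stromelysin that furin activates inside the cell, had 11.1, 10.8 and 10.2 FPKM with siSox9 and 13.9, 12.8 and 12.7 with siNC. The groups did not overlap and Mmp11 fell to 81.4% of control (log2 fold change -0.27, SE 0.05, limma, adjusted p = 0.00508). It shares 155 exon bases, 5.58% of its exons, with Chchd10 on the opposite strand, which had 0.977 and 0.749 FPKM with siSox9 and siNC.

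On chromosome 9, 8 of the Mmp genes analysed here, of the collagenase, stromelysin, matrilysin and related groups, lie within 427 kb, from Mmp13 to Mmp7. They differed widely in level, and none of the 3 that were tested passed the threshold with limma, where Mmp12 alone had a 95% interval that did not reach 0. Mmp13, a collagenase, had 7.88, 9.33 and 10.2 FPKM with siSox9 and 9.16, 8.38 and 8.08 with siNC (log2 fold change 0.08, 95% interval -0.12 to 0.29, adjusted p = 0.51). Mmp12, the macrophage metalloelastase, had 8.30, 9.26 and 9.30 FPKM with siSox9 and 8.49, 7.58 and 7.58 with siNC. Only siNC replicate 1 lay inside the siSox9 range, and the log2 fold change was 0.16 (95% interval 0.02 to 0.30, limma, adjusted p = 0.0764). On the opposite strand, Mmp1b, which was not analysed here, shares 157 exon bases with Mmp12, 2.17% of the Mmp12 exons. Mmp12 passed without siSox9 replicate 1 (log2 fold change 0.21, adjusted p = 0.0457), without siNC replicate 1 (0.21, adjusted p = 0.0304), after median-centring (0.19, adjusted p = 0.0492), after quantile normalization (0.19, adjusted p = 0.0444) and in limma voom on recovered reads (0.18, adjusted p = 0.0196). Beside it, the macrophage markers Lyz2 and C1qc changed in opposite directions (log2 fold change 0.21, adjusted p = 0.0175 and -0.17, adjusted p = 0.0396) and the other 5 tested did not pass; their part in the Mmp12 values was not tested. Mmp10, a stromelysin, had 1.26, 1.07 and 1.24 FPKM with siSox9 and 0.889, 1.13 and 0.818 with siNC, on 35 to 56 reads, and its groups overlapped (log2 fold change 0.17, 95% interval -0.03 to 0.38, limma, adjusted p = 0.169). Mmp3, Mmp8, Mmp27, Mmp20 and Mmp7 had means of 0.0192 to 0.0996 FPKM.

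**Figure D2:**
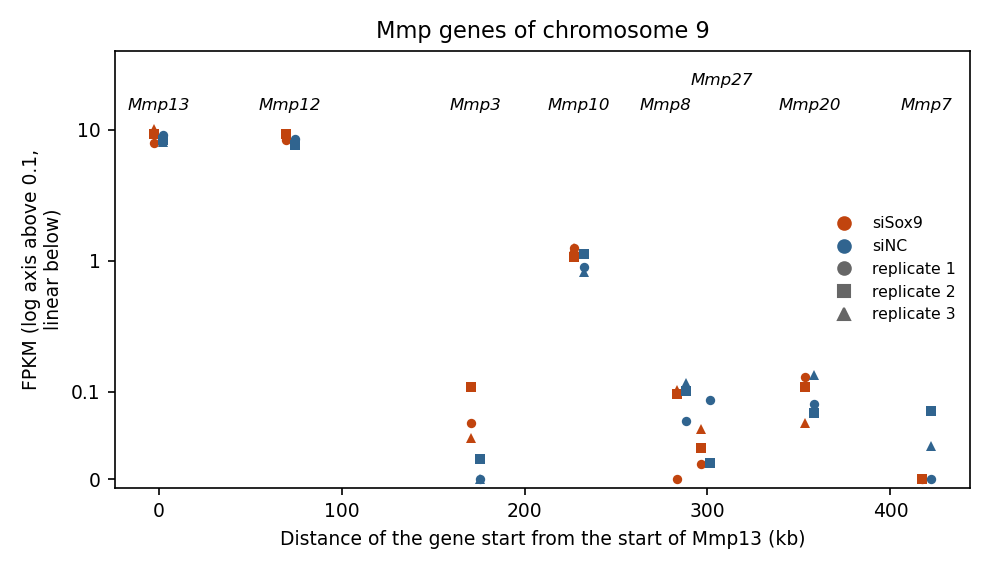
FPKM (log axis above 0.1, linear below) of the 8 Mmp genes analysed in the chromosome 9 cluster. Each point is a library, placed by the distance of the gene's start from that of Mmp13 (kb). Mmp13 and Mmp12, at 7.58 to 10.2 FPKM, and Mmp10, at 0.818 to 1.26, stand above the other 5 genes, whose means are at most 0.0996 FPKM, and siSox9 and siNC points overlap at every one of these genes except Mmp3.

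AP-1 letters were found before the starts of most of the genes analysed in this cluster. AP-1 is the dimer of Fos and Jun proteins, and its letters were searched as TGANTCA, where N is any base. Counted by gene, they occur within 250 bases before a RefSeq start in 6 of the 8 cluster genes. They occur in 0 of the 22 other Mmp, Adamts and Timp genes with a RefSeq promoter. Counted by promoter, 6 of the 33 promoters of these families hold them, against 6.75% of all promoters. Mmp12 and Mmp7 each have another RefSeq start without these letters. The genes of this cluster arose by duplication, so these are not independent cases, and no test was made. The 100 bases before the start are shown for the 6 genes, 5′ to 3′ on the + strand in GRCm38.p6, with the AP-1 letters in capitals. They are chr9:7272414-7272513 for Mmp13, chr9:7347274-7347373 for Mmp12 (at a RefSeq start inside the GENCODE gene), chr9:7445722-7445821 for Mmp3, chr9:7502242-7502341 for Mmp10, chr9:7628131-7628230 for Mmp20 and chr9:7691990-7692089 for Mmp7:
Mmp13: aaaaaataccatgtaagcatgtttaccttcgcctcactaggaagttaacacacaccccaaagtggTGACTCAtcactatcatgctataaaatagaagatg
Mmp12: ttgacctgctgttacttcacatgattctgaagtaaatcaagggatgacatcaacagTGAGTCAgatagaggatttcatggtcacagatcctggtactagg
Mmp3: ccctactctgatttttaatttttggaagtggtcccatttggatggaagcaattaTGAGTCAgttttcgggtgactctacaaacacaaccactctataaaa
Mmp10: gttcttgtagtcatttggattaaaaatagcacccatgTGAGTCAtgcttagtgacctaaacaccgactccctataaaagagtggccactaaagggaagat
Mmp20: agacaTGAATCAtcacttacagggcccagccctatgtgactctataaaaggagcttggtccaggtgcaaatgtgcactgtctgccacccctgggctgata
Mmp7: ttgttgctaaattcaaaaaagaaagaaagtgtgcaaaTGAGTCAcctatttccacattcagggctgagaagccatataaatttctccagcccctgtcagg
The letters begin 35 bases before the start in Mmp13, 44 in Mmp12, 46 in Mmp3, 63 in Mmp10 and Mmp7, and 95 in Mmp20. Levels differed widely among the genes that hold them: Mmp13 and Mmp12 had means of 8.84 and 8.42 FPKM over the 6 libraries, and Mmp3 and Mmp7 had 0.0406 and 0.0192. In Mmp20 the matched letters are TGAATCA, while in the other genes shown the N is C or G. A match describes letters and not a bound site.

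The Adamts genes that cut proteoglycans gave both the highest level in the family and 2 small rises. Adamts1 was the most abundant of the 44 genes, with 77.2, 74.7 and 69.8 FPKM with siSox9 and 81.0, 75.0 and 78.2 with siNC. Its groups overlapped (log2 fold change -0.08, 95% interval -0.19 to 0.03, limma, adjusted p = 0.242). Adamts5, an aggrecanase, had 46.3, 46.1 and 45.6 FPKM with siSox9 and 43.4, 40.6 and 41.8 with siNC. Here every siSox9 library lay above every siNC library, at 110% of the control mean (log2 fold change 0.13, SE 0.03, limma, adjusted p = 0.0209). The call rests on several libraries: adjusted p was 0.0706 without siSox9 replicate 1, 0.0748 without siSox9 replicate 2, 0.0598 without siNC replicate 2 and 0.0675 without siNC replicate 3. Adamts1 and Adamts5 are neighbours on chromosome 16, 55.1 kb apart.

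Adamts4, the other aggrecanase tested, had 1.25, 1.33 and 1.20 FPKM with siSox9 and 0.946, 0.792 and 0.937 with siNC, on 92 to 163 reads. The groups did not overlap and the siSox9 mean was 142% of control (log2 fold change 0.26, SE 0.07, limma, adjusted p = 0.0319). The siNC mean of 0.892 FPKM was under the minimum, so Adamts4 was tested because of its siSox9 values. With no filter, limma gave it an adjusted p of 0.0768. Adjusted p was 0.06 to 0.108 without siSox9 replicate 1, 2 or 3 and without siNC replicate 2 or 3, and 0.048 without siNC replicate 1. Whether the counting used strand is not given in the sources used here, so the Adamts4 values may hold reads from the opposite strand, and their part was not tested. Adamts8, Adamts9, Adamts15 and Adamts20, of the same group, were under 1 FPKM.

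Adamts7 and Adamts12 form a pair that cut COMP, and they moved in opposite directions. Adamts12 had 2.09, 2.48 and 2.11 FPKM with siSox9 and 1.0, 0.950 and 0.839 with siNC. Every siSox9 value lay above every siNC value, and the ratio of means was 2.39, the largest among the 19 genes tested. The log2 fold change was 0.74 (95% interval 0.57 to 0.91, SE 0.07, limma, adjusted p = 0.000578). The siNC mean of 0.93 FPKM was under the minimum, so Adamts12 was tested because of its siSox9 values. With no filter, limma gave it an adjusted p of 0.00433. Its values did not come out as whole reads with the GENCODE M21 exon length, so the reads behind them are unknown. Adamts7 had 2.82, 2.43 and 2.30 FPKM with siSox9 and 3.29, 3.03 and 3.28 with siNC, with no overlap. It fell to 78.7% of control (log2 fold change -0.26, SE 0.07, limma, adjusted p = 0.0264), but adjusted p was 0.084 without siSox9 replicate 2, 0.0749 without siSox9 replicate 3, 0.0623 without siNC replicate 1 and 0.0815 without siNC replicate 3. It shares 122 exon bases, 1.94% of its exons, with Tbc1d2b on the opposite strand, at 2.27 and 2.51 FPKM. Adamts12 over Adamts7 within a library was 0.74, 1.02 and 0.92 with siSox9 and 0.304, 0.314 and 0.256 with siNC; the ratio was chosen after the values were seen (exact permutation test, p = 0.1, the smallest possible).

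**Figure D3:**
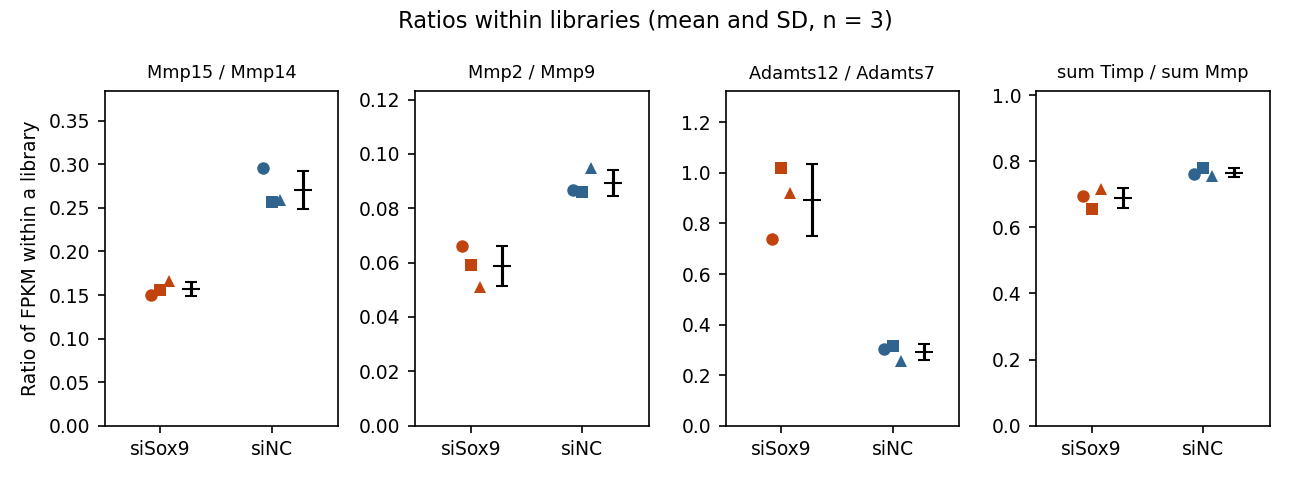
Ratios of FPKM within each library (points, with circle, square and triangle for replicates 1, 2 and 3) with the mean and SD (n = 3) beside them; each panel has its own axis from 0. Adamts12 over Adamts7 lies at 0.74 to 1.02 with siSox9 and 0.256 to 0.314 with siNC, and Mmp15 over Mmp14, Mmp2 over Mmp9 and summed Timp over summed Mmp lie lower in every siSox9 library than in any siNC library.

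Adamts12 is a + strand gene of chromosome 15 (GRCm38, 11064790 to 11346867). The 250 bases before its RefSeq start (chr15:11064523-11064772, + strand, GRCm38.p6) are shown because it rose the most, with the ETS letters in capitals as they read on the other strand:
Adamts12: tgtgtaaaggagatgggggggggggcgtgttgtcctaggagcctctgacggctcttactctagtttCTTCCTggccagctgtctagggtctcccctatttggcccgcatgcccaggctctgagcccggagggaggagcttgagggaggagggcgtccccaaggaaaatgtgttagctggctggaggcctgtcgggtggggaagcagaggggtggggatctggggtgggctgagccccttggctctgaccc
They begin 184 bases before the start, and 29.5% of all promoters hold them. Neither AP-1 nor SOX letters are in this window.

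Among the other Adamts genes, Adamts16 had 1.11, 1.12 and 1.08 FPKM with siSox9 and 1.58, 1.34 and 1.56 with siNC, on 176 to 268 reads. The groups did not overlap and it fell to 73.8% of control (log2 fold change -0.24, SE 0.07, limma, adjusted p = 0.0325). Adjusted p was 0.0794 to 0.1 when any library other than siNC replicate 2 was left out. Adamts10 and Adamts6, which are tied to the fibrillin microfibrils of the matrix, did not pass. Adamts10 had 1.21, 1.34 and 1.12 FPKM with siSox9 and 1.94, 1.61 and 1.45 with siNC, with no overlap (log2 fold change -0.26, 95% interval -0.46 to -0.06, limma, adjusted p = 0.0595). Adamts6 had 4.96, 4.82 and 4.55 FPKM with siSox9 and 4.79, 4.43 and 4.16 with siNC, with overlap (log2 fold change 0.08, 95% interval -0.05 to 0.21, limma, adjusted p = 0.305). Adamts2, Adamts3 and Adamts14, which trim procollagens, and Adamts13, which cuts von Willebrand factor, were under 1 FPKM.

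All 3 Timps tested had a lower mean with siSox9, and 1 passed. Timp3, the matrix-bound inhibitor, had 24.8, 24.4 and 22.5 FPKM with siSox9 and 29.5, 27.7 and 27.4 with siNC. The groups did not overlap and Timp3 fell to 84.7% of control (log2 fold change -0.23, SE 0.05, limma, adjusted p = 0.0108). Timp3 lies inside Syn3, with which it shares 1733 exon bases, 21.3% of its exons, on the opposite strand; Syn3 had 0.143 and 0.148 FPKM. Timp2 had 51.9, 48.1 and 46.1 FPKM with siSox9 and 54.6, 52.5 and 53.5 with siNC. Its groups did not overlap, and the log2 fold change was -0.14 (95% interval -0.24 to -0.03, limma, adjusted p = 0.0621). It passed without siSox9 replicate 1 (adjusted p = 0.0216) and in limma voom on recovered reads (adjusted p = 0.0153). Timp1, which is induced in many injured tissues, had 45.7, 44.1 and 51.3 FPKM with siSox9 and 52.5, 54.4 and 50.3 with siNC. Only siSox9 replicate 3 reached the siNC range (log2 fold change -0.15, 95% interval -0.29 to -0.01, limma, adjusted p = 0.0907), and without that library Timp1 passed (log2 fold change -0.22, adjusted p = 0.0172). Timp4 was under 1 FPKM. With every library scaled to the same sum (TPM), Timp3 (limma, adjusted p = 0.0731), Adamts5, Adamts4, Adamts7 and Adamts16 no longer passed, while their directions held.

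**Figure D4:**
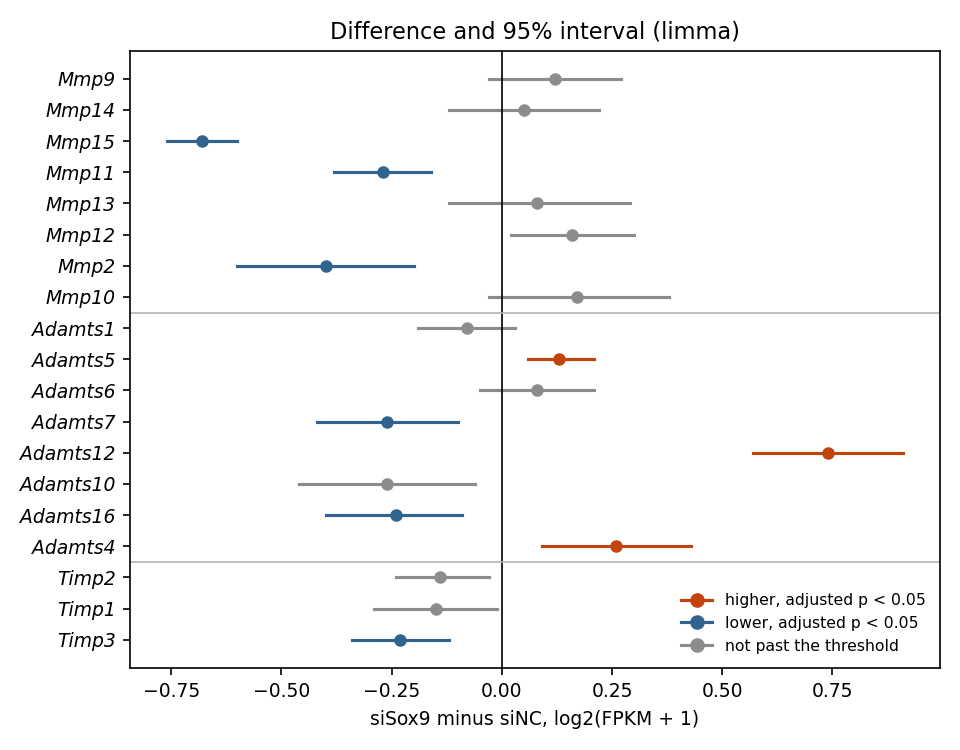
Difference between siSox9 and siNC on the log2(FPKM + 1) scale with its 95% interval from limma for the 19 genes tested, coloured by the call at an adjusted p under 0.05. Adamts12 (0.74) and Mmp15 (-0.68) lie farthest from 0, and Timp3, Timp2 and Timp1 lie at -0.23, -0.14 and -0.15.

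The other 25 genes had means of 0.00117 to 0.715 FPKM. Whole reads could be recovered for 23 of them: 9 had at most 10 reads in every library, 9 had 11 to 50 in their highest library and 5 had over 50. In a limma fit with no filter, which called 9.6% of 28122 genes, 0 of the 25 passed and 4 had an unadjusted p under 0.05. In limma voom on recovered reads, which was added after the data were seen and called 22.2% of 17943 genes, 34 of the 44 genes were tested and 11 passed, 2 higher and 9 lower. Of those under 1 FPKM, 19 were in this fit and 2 passed, which are named after their values were seen. Both are membrane-type Mmps; Mmp24, another membrane-type member in this fit, gave 79, 83 and 81 reads with siSox9, against 82, 71 and 86 with siNC, which overlap (log2 fold change 0.00, SE 0.16, limma voom, adjusted p = 0.994). For Mmp16 the siSox9 libraries gave 36, 47 and 19 reads and the siNC libraries 58, 55 and 88 (log2 fold change -1.04, SE 0.27, limma voom, adjusted p = 0.00634). Mmp17, which is held in the membrane by a lipid anchor, gave 24, 28 and 17 reads with siSox9, against 40, 51 and 38 with siNC (log2 fold change -0.92, SE 0.26, limma voom, adjusted p = 0.0141). In both, every siSox9 library had fewer reads than every siNC library.

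**Figure D5:**
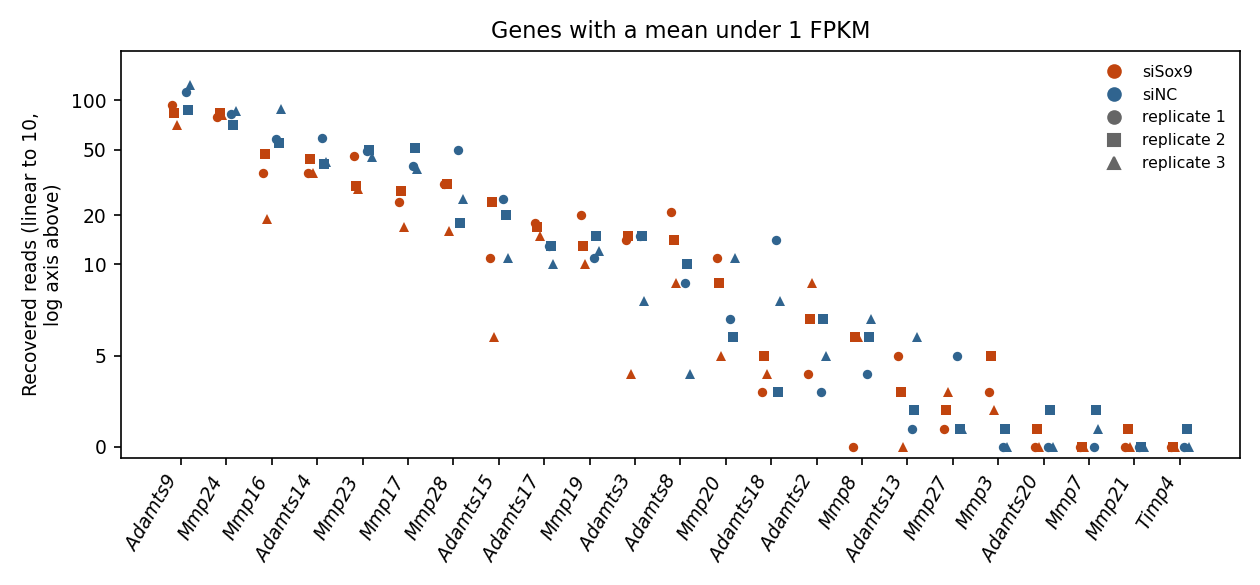
Recovered reads per library (linear to 10, log axis above) for the 23 genes with a mean under 1 FPKM whose values came out as whole reads, ordered by their mean. Mmp16 and Mmp17 have 17 to 47 reads with siSox9 and 38 to 88 with siNC, and the genes on the right of the plot have too few reads to compare.

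Other genes of pericellular proteolysis were described from lists of related genes. Of 56 such genes 29 were tested and 15, or 51.7%, passed against 30.4% of all genes. Of the 15, 9 were higher and 6 lower with siSox9, where 12.8% of all genes were higher and 17.6% lower. The lists were chosen with earlier results of these data known, so these shares and the counts by list are descriptions only. Plasminogen activation and the proprotein convertases, which start protease cascades and activate Mmp precursors, had 10 genes tested, of which 5 rose and the other 5 did not pass. Plat, tissue plasminogen activator, had 19.3 ± 0.338 FPKM (SD, n = 3) with siSox9 and 16.3 ± 0.543 (SD, n = 3) with siNC (log2 fold change 0.23, limma, adjusted p = 0.00327), and the membrane protease Hpn rose by 0.22 on the log2 scale (adjusted p = 0.0361).

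In the Adam family, the membrane-anchored sheddases related to Adamts, 7 genes were tested, 2 rose and 1 fell. Adam8 had 9.96 ± 0.369 FPKM (SD, n = 3) with siSox9 and 6.73 ± 0.21 (SD, n = 3) with siNC (log2 fold change 0.50, limma, adjusted p = 0.000257). Adam12 rose by 0.31 (adjusted p = 0.000991) and Adam19 fell (log2 fold change -0.43, adjusted p = 0.00466), with a siSox9 mean of 0.907 FPKM. Of the other inhibitors and clearance receptors, 2 were tested and Lrp1, an endocytic receptor that clears proteases and their complexes with inhibitors, rose by 0.22 (limma, adjusted p = 0.00742).

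Matrix proteins and enzymes that process procollagens were also measured. Among the Adamts substrates, 4 were tested and 2 fell: fibronectin, Fn1, had 954 ± 14.6 FPKM (SD, n = 3) with siSox9 and 1590 ± 50.0 (SD, n = 3) with siNC (log2 fold change -0.74, limma, adjusted p = 5.94e-05), and fibrillin, Fbn1, fell as well (log2 fold change -0.21, adjusted p = 0.0385). Of the astacins and procollagen enhancers, 4 were tested; Bmp1, a procollagen C-proteinase, rose (log2 fold change 0.26, limma, adjusted p = 0.00698), and its enhancer Pcolce (-0.41, adjusted p = 0.00321) and its relative Tll1 (-0.23, adjusted p = 0.0309) fell. Of the Adamts-like proteins, which carry thrombospondin repeats without a protease domain, 2 were tested and Thsd4 fell (log2 fold change -0.30, limma, adjusted p = 0.00849).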

How the data were processed

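RNA-Seq was performed on total RNA of 6 libraries, 3 with siSox9 and 3 with siNC,. A table of FPKM values, already scaled to exon length and library size by the authors, was deposited; the submitters' processing notes name HISAT2 2.1.0, Bowtie2 2.2.3, TopHat2 and mm9 with no role or order, and the counter, annotation and strand setting are not given in the sources used here. Gene positions in the table equal those of GENCODE M21 (GRCm38) for 93.3% of the 30246 genes found there, so coordinates are given in GRCm38. The siSox9 columns are named for an siRNA that is not the control.

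The members and lists were chosen with earlier results of these data known. The test was limma 3.58.1 (lmFit, eBayes with a trend, in R 4.3.3) on log2(FPKM + 1), a pseudocount of 1, over genes whose mean reached 1 FPKM, with Benjamini-Hochberg adjustment over all 12009 genes and no replicate block. This follows the unpaired tests of the study. Reads were computed back from FPKM and GENCODE M21 exon lengths; 93.3% of values came out whole within 0.02 reads, and 27948 genes did in all libraries. At these depths 1 read on 1 kb is 0.0389 to 0.0419 FPKM. Reads without molecular identifiers are not independent molecules. Every gene at 1 FPKM or more was named, the rest as a group, and of each related list up to 3 genes past the threshold with the largest change. Promoter letters were searched in 33 RefSeq promoters that matched 30 of the 44 genes. Mmp1a and Mmp1b were not analysed here, and some genes of the lists and overlaps are not reported here.

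The limma script was tested on simulated data for siSox9 against siNC over 11981 genes. It called 88 of 100 genes changed by 0.5 and 99 of 100 changed by 1 on the log2 scale, and 14 of 11781 unchanged genes. Changed genes were drawn above a level higher than the 1 FPKM minimum, with a spread taken from abundant genes. A far smaller share of genes was changed than the data gave. Changes under 0.5 were not simulated, so these rates do not cover smaller calls or genes near the minimum. Alternatives were a pseudocount of 0.1, a minimum of 5 FPKM or none, TPM, centring on medians, quantile normalization, a replicate block and leaving out each library, with limma voom on recovered reads (at least 10 in all) added after the data were seen. Other steps used scipy 1.17.1, pandas 2.3.3, numpy 2.4.6 and matplotlib 3.10.9 under Python 3.11.15.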

Additional observations from a re-analysis of the deposited data

How the results depend on the processing

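Mmp15, Mmp11 and Adamts12 kept their direction and stayed past the threshold under every alternative that tested them, with log2 fold changes of -0.73 to -0.65, -0.3 to -0.24 and 0.69 to 1.17. Mmp2 was lost only with no filter (adjusted p = 0.0516) and Timp3 only with TPM (adjusted p = 0.0731). Of 254 alternative values of single genes, 211 kept their direction and side of the threshold, 32 were no longer past it, 9 passed anew and 2 reversed, both of them Mmp14 at -0.01 without replicate 1 of either group, in a range of -0.01 to 0.11 over the libraries left out; the cause was not tested.

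The 3650 genes past the threshold became 2424 to 3654 with 1 library left out, the lowest without siSox9 replicate 2, and the main split of 1532 higher and 2118 lower became 1959 and 1765 after median-centring, where the median of all genes moved from -0.014 to 0.012. The 3 Mmp calls became 4 after median-centring and after quantile normalization, where Mmp12 passed as well, 3 to 5 with 1 library left out, with 5 without siNC replicate 1, and 6 in limma voom on recovered reads. The 5 Adamts calls became 2 with no filter, 1 with a minimum of 5 FPKM, where fewer genes were tested, 1 with TPM, 2 with quantile normalization and 1 to 3 with 1 library left out. In limma voom on recovered reads they became 3, because Adamts5 and Adamts12 gave no whole reads and were not in that fit. Adamts7, Adamts16 and Adamts4 passed there (limma voom, adjusted p = 0.00259, 0.00303 and 0.0065). The 1 Timp call became 0 with TPM, where limma gave 1 gene an unadjusted p under 0.05, 1 to 2 with 1 library left out and 2 in limma voom on recovered reads. Where no cause is named, the cause was not tested.

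In a fit with a replicate block 3262 genes passed, 1373 higher and 1889 lower, and 3 Adamts genes did, with Adamts16 (adjusted p = 0.0693) and Adamts4 (adjusted p = 0.0763) no longer past the threshold. Deviations of same-numbered libraries from their group means correlated at 0.0649, -0.0504 and 0.00784, so no strong shared effect of the replicate number was seen. The labels do not say whether same-numbered libraries belong together, and these correlations cannot tell.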
